A study of Mus musculus with 32 samples.

Results

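The genes described here are 38 interferon response genes, measured in the hearts of mice that had been exposed to an aggressor mouse. The members were chosen by the gene name that the array gives each probe, and 37 of the 38 had a probe of their name (48 probes in all). Of these, 36 were among the 27535 genes tested. The member without a probe of its name was Herc6, and the tested-list exception was Oas3, whose probe was well above background on 9 of the 32 arrays and on at most 2 of the 4 arrays of any group. RNA of 32 C57BL/6 mice was labelled with cyanine 3 and hybridised to Agilent mouse arrays, with an array for each heart. There were 8 groups of 4 mice, a stressed and a control group in each of 4 conditions.

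Stressed mice sat in a mesh box within the cage of an aggressor for 6 hours a day, over 5 or 10 days. They were placed with the aggressor itself 3 to 5 times, for up to 2 minutes or 10 bites. The conditions were T5R1 (5 exposure days, 1 rest day), T5R10 (5 exposure days, 10 rest days), T10R1 (10 exposure days, 1 rest day) and T10R42 (10 exposure days, 42 rest days). Control mice sat in such boxes inside a large cage that held no aggressor, and every condition had control mice of its own. All groups therefore shared the strain, the tissue and the mesh box, and the arms differed in the aggressor. The labels give no age or sex. The design varied the length of exposure and of rest, so the comparisons below ask how the stress effect on these genes depends on both.

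Interferons are secreted when cells sense viral or misplaced nucleic acid, and also by immune cells during inflammation. Type I interferon signals through the kinases JAK1 and TYK2 to a complex that holds STAT2 and IRF9, which binds the interferon-stimulated response element (ISRE) in the promoters of its target genes. Interferon gamma signals mainly through the gamma-activated site (GAS) and through IRF1, and is the stronger inducer of the interferon-inducible GTPases. In the heart, interferon-stimulated genes are known for limiting infection with cardiotropic viruses and are also expressed by macrophages after injury. Most laboratory mouse strains carry defective Mx1 and Mx2 genes, so the transcripts of both can be read as reporters of signalling but not of their antiviral function.

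The promoters of the members show where the ISRE lies. RefSeq promoter sequences (GRCm38.p6, 250 bases before to 50 bases after the start) were on hand for 28 of the 38 members. The ISRE core, searched on both strands as GAAA, any 2 bases and GAAA again, occurred in 16 of these 28 promoters (57.1%), against 1079 of 27025 genes in the whole table (3.99%). Members that rose in T5R1 held the letters in 8 of 13 promoters and the other members in 8 of 15. All 4 GTPases with an entry held them. The GAS letters TTCNNNGAA, which can overlap an ISRE, occurred in 8 of 28 members' promoters (28.6%), against 9.55% of all genes. The 30-base windows shown here carry the match nearest the start for 6 members that rose in T5R1 and for 3 GTPases that did not pass the test there. Capitals mark these letters, and each window is read 5′ to 3′ on the strand that holds it.
Isg15: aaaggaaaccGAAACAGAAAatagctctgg
Ifit1: tcagcagtgaGAAACTGAAActgagactgg
Ifit3: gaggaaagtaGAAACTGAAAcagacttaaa
Oas1a: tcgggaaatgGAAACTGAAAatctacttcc
Eif2ak2: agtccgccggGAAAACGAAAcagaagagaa
Rsad2: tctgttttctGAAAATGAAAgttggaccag
Gbp2: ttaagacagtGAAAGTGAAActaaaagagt
Igtp: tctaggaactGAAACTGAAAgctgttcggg
Irgm1: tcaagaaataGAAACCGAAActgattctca
The letters GAAACTGAAA were the same in Ifit1, Ifit3, Oas1a and Igtp, so windows of members that rose and of a GTPase that did not pass the test shared them. The Isg15 window lies at chr4:156200865-156200894 on the minus strand of GRCm38.p6, the Ifit3 window at chr19:34583397-34583426 on the minus strand and the Igtp window at chr11:58199512-58199541 on the plus strand. Isg15 had 3 overlapping matches, which begin 78, 72 and 66 bases before its start. They form the single run of capitals in its promoter, shown whole because Isg15 is the member whose change recurs in the comparisons below.
Isg15 promoter: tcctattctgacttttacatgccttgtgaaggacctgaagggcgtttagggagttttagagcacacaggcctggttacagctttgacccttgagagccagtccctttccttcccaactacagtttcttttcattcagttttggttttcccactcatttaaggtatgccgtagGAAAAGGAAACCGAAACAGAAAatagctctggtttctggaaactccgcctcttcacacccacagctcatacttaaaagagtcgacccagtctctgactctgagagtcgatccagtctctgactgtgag

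Levels are given as log2 signal minus the array's own 75th percentile signal, so 0 is that percentile and a difference of 1 is a 2-fold difference. Levels of different genes cannot be ranked against each other, since each probe binds with its own strength. A gene was called, and is said to have risen or fallen, when limma gave a Benjamini-Hochberg adjusted p below 0.05 over all genes tested. Counts of members at an unadjusted p below 0.05 are given without the share of all genes at that level. Those counts therefore cannot be weighed against the whole array. The arrays had 28798 to 40676 probes well above background and 75th percentile signals from 237.19 to 498.87. Arrays of a group correlated at 0.982 to 0.994. Each condition lay on a slide of its own and the arms of every slide lay in separate columns of arrays, so column and arm cannot be told apart. The T10R1 slide was scanned on a different day from the slides of the other conditions. The scanner software marked 3 arrays for evaluation, namely stressed replicates 1 and 2 and control replicate 4 of T5R10.

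A day after the 5-day exposure ended, interferon response genes were higher in the stressed hearts. In T5R1 17 of the 36 members rose and none fell by limma, where 5.3% of all genes rose and 8.43% fell (13.7% in either direction). Of all called genes 61.4% were thus lower, against 36.5% after quantile normalization. In all, 33 of the 36 were measured higher, with a median difference of 0.45 on the log2 scale against -0.12 over all genes. Every stressed mouse lay above every control mouse for 20 members and below every control mouse for 1, against 6.63% and 15.7% of all genes. At an unadjusted p below 0.05, 24 members were higher and 1 was lower (share of all genes not given). In whole-heart RNA, more cells of a type and more RNA per cell cannot be told apart.

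**Figure D1:**
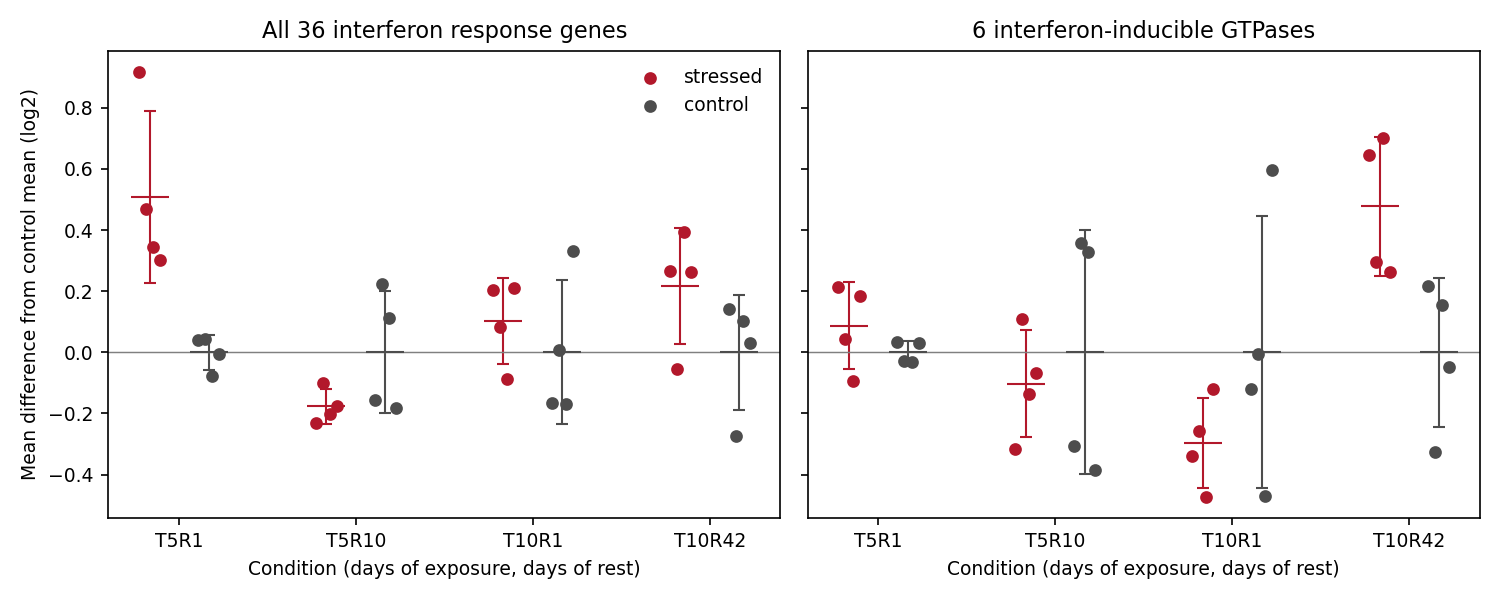
Each point is a mouse, and its height is the mean over genes of its log2 difference from the control mean of its condition, for the 36 members (left) and the 6 interferon-inducible GTPases (right). Bars give the mean and SD of 4 mice. In T5R1 the 36-gene means were 0.30 to 0.92 in stressed mice and -0.08 to 0.04 in control mice, and in T10R42 the GTPase means were 0.26 to 0.70 in stressed mice and -0.32 to 0.22 in control mice.

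Averaged over the 36 genes, the 4 stressed T5R1 mice lay 0.92, 0.47, 0.35 and 0.30 above their control mean, and the controls spread from -0.08 to 0.04. The largest value was that of stressed replicate 1, which was also the highest of its group for 16 of the 17 members that rose. Without that mouse 11 members rose. Mx1 was then 0.90 higher (adjusted p = 0.218 by limma), Usp18 0.42 (0.152), Ifit1 0.48 (0.147), Ifi44 0.41 (0.155), Irf7 0.59 (0.0752) and Ddx58 0.36 (0.0615), and these 6 lost their calls. Rsad2 lost its call without stressed replicate 3 (0.75, adjusted p = 0.0595). Single control mice mattered as well, since Mx1 lost its call without control replicate 1, 3 or 4, Ifi44 without 1, 2 or 4, Ifit1 without 2, 3 or 4, Usp18 without 2 or 3 and Irf7 without 3. Mx1 also lost it without stressed replicate 2. Over the 6 GTPases stressed replicate 1 was again the highest mouse, at a mean of 0.21, against 0.18, 0.04 and -0.09 in the other stressed mice.

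ISG15 is a ubiquitin-like protein that is conjugated to other proteins in infected cells. Isg15 had levels of 4.02, 3.24, 3.95 and 2.92 in stressed T5R1 hearts, against 2.50, 2.32, 2.44 and 2.33 in their controls. It rose by 1.14 ± 0.20 (log2, SE, 2.20-fold, adjusted p = 0.00045), with every stressed mouse above every control. The second Isg15 probe differed by 0.93. Usp18 encodes the protease that removes ISG15 and damps signalling at the type I receptor. Its levels were 0.32, -0.40, -0.73 and -0.70 in stressed hearts, against -0.92, -1.06, -1.14 and -0.98 in controls. It rose by 0.65 ± 0.20 (adjusted p = 0.027), and the groups did not overlap.

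Of the 10 antiviral effectors 6 rose, and all 10 were measured higher. Eif2ak2, which encodes the double-stranded RNA-activated kinase PKR, had the smallest p of all members. Its levels were -0.12, -0.46, -0.26 and -0.37 in stressed hearts, against -0.99, -1.09, -1.02 and -1.03 in controls. The rise was 0.73 ± 0.11 (adjusted p = 7.9e-05), and the gap between the groups was wider than the spread within either. IFIT proteins bind viral RNA and block its translation. Ifit3 had 2.35, 1.64, 1.27 and 1.71 in stressed hearts, against 0.98, 0.79, 0.68 and 0.65 in controls, a rise of 0.97 ± 0.18 (adjusted p = 0.000698). Ifit1 had 0.66, -0.30, -0.75 and -0.66 in stressed hearts, against -0.81, -1.07, -1.13 and -1.21 in controls, a rise of 0.79 ± 0.24 (adjusted p = 0.0255). The groups did not overlap for either gene, although the lowest stressed mouse for Ifit1, at -0.75, lay close to the highest control, at -0.81. Ifit2 was 0.44 ± 0.17 higher and was not called (adjusted p = 0.0801).

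IFITM3 blocks the entry of viruses at the endosome. Ifitm3 had 4.37, 4.09, 4.11 and 4.23 in stressed hearts, against 3.70, 3.77, 3.86 and 3.65 in controls. Its rise was small but even among mice, at 0.45 ± 0.08 (1.37-fold, adjusted p = 0.000393). Rsad2, which encodes viperin, had 1.63, 1.75, 3.14 and 1.64 in stressed hearts, against 0.81, 0.99, 0.93 and 0.96 in controls. It rose by 1.12 ± 0.29 (adjusted p = 0.0123), and here stressed replicate 3 was highest. Mx1 had -1.17, -2.07, -3.83 and -4.10 in stressed hearts, against -4.15, -3.65, -4.82 and -4.33 in controls. It was called higher by 1.44 ± 0.48 (adjusted p = 0.0429), but the groups overlapped and its probe was well above background on 3 stressed and 2 control arrays. With normexp background correction it was 0.53 higher and not called (adjusted p = 0.0601). Mx2 had -0.36, -0.93, -1.16 and -1.37 in stressed hearts, against -1.28, -1.20, -1.45 and -1.28 in controls, a difference of 0.35 ± 0.18 that was not called (adjusted p = 0.207). Bst2, which encodes the tether of budding viruses called tetherin, had 3.43, 2.83, 2.58 and 2.99 in stressed hearts, against 2.69, 2.84, 2.77 and 2.56 in controls, and was not called either (adjusted p = 0.309).

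Oligoadenylate synthetases make the second messenger that activates the ribonuclease RNase L, and Oasl1 encodes a relative without that activity. Of the 4 tested, 3 rose. Oasl2 had 1.68, 1.20, 1.05 and 1.01 in stressed hearts, against 0.46, 0.45, 0.41 and 0.57 in controls, a rise of 0.76 ± 0.13 (adjusted p = 0.000303). Oasl1 had 1.45, 0.84, 0.61 and 0.13 in stressed hearts, against 0.01, -0.29, -0.41 and -0.29 in controls, a rise of 1.00 ± 0.19 (adjusted p = 0.000921). Oas1a rose by 0.97 ± 0.21 (adjusted p = 0.00275), with 1.45 to 2.70 in stressed hearts and 0.89 to 1.05 in controls. For all 3 the stressed mice lay above the controls without overlap. Oas2 was 0.36 higher and was not called.

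Among the 4 sensors of nucleic acid, the RIG-I-like receptors Dhx58 (LGP2) and Ddx58 (RIG-I) rose. Dhx58 had -0.95, -1.76, -1.83 and -1.90 in stressed hearts, against -2.65, -3.02, -2.88 and -2.59 in controls. Its rise of 1.18 ± 0.21 (2.26-fold, adjusted p = 0.000561) was the largest among the members whose groups did not overlap, in the values reported. Over the alternatives, mice left out included, it ranged from 0.645 to 1.276 and kept its call, against 0.975 to 1.34 for Isg15. Ddx58 rose by 0.48 ± 0.12 (adjusted p = 0.00979), with 0.80 to 1.36 in stressed hearts and 0.44 to 0.61 in controls. The third receptor of that family, Ifih1 (MDA5), was 0.27 higher and Zbp1, a sensor of Z-form nucleic acid, 0.48 higher. Neither was called.

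Of 6 other induced genes, whose functions are less settled, Lgals3bp, Rtp4 and Ifi44 rose. Lgals3bp, a secreted galectin-binding glycoprotein, had 3.95, 3.35, 2.97 and 3.17 in stressed hearts, against 2.65, 2.63, 2.61 and 2.41 in controls. That is a rise of 0.79 ± 0.15 (adjusted p = 0.00065), but the other Lgals3bp probe differed by only 0.083, so the probes disagree. The other probe was nearly as bright, at a mean level of 2.92 against 2.97. Rtp4 rose by 0.64 ± 0.14, with 1.91 to 2.48 in stressed hearts and 1.40 to 1.57 in controls. Ifi44 rose by 0.64 ± 0.19, with -0.35 to 0.63 in stressed hearts and -0.82 to -0.52 in controls. Xaf1, Parp14 and Ifi35 were not called.

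Of the transcription factors that carry the signal, Irf7 alone was called. IRF7 is itself interferon-induced and amplifies the production of type I interferon. Irf7 had -0.19, -0.86, -1.47 and -1.23 in stressed hearts, against -1.56, -1.71, -2.23 and -1.61 in controls, a rise of 0.84 ± 0.22 (adjusted p = 0.0119). Stat2 had 1.71, 1.24, 1.21 and 1.10 in stressed hearts, against 1.08, 1.12, 0.90 and 1.06 in controls. Its difference of 0.27 ± 0.13 and that of 0.33 for Irf9 were not called. Irf1, the factor central to the response to interferon gamma, ran the other way, with 2.95, 2.76, 2.81 and 2.74 in stressed hearts, against 3.00, 3.11, 3.03 and 3.09 in controls. All stressed mice lay below all controls, by 0.24 on average (-0.24 ± 0.10), and the difference was not called (adjusted p = 0.116).

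The interferon-inducible GTPases, which attack the membranes around intracellular pathogens, gave no call in T5R1 (0 of 6, against 17 of the 30 other members). With the condition fitted alone Gbp3 was called, with 10 other members. Their median difference was 0.05. Gbp2 had 1.43, 1.52, 1.23 and 1.68 in stressed hearts, against 1.29, 1.53, 1.41 and 1.43 in controls. Igtp had 2.40, 2.21, 2.02 and 2.31 in stressed hearts, against 2.24, 2.39, 2.12 and 1.98 in controls. The arms overlapped for both. Gbp3 had 1.43 to 1.65 in stressed hearts and 0.99 to 1.28 in controls, which did not overlap, and it missed the threshold (0.39, adjusted p = 0.163). Whether the GTPases differed from the other members was not tested.

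**Figure D2:**
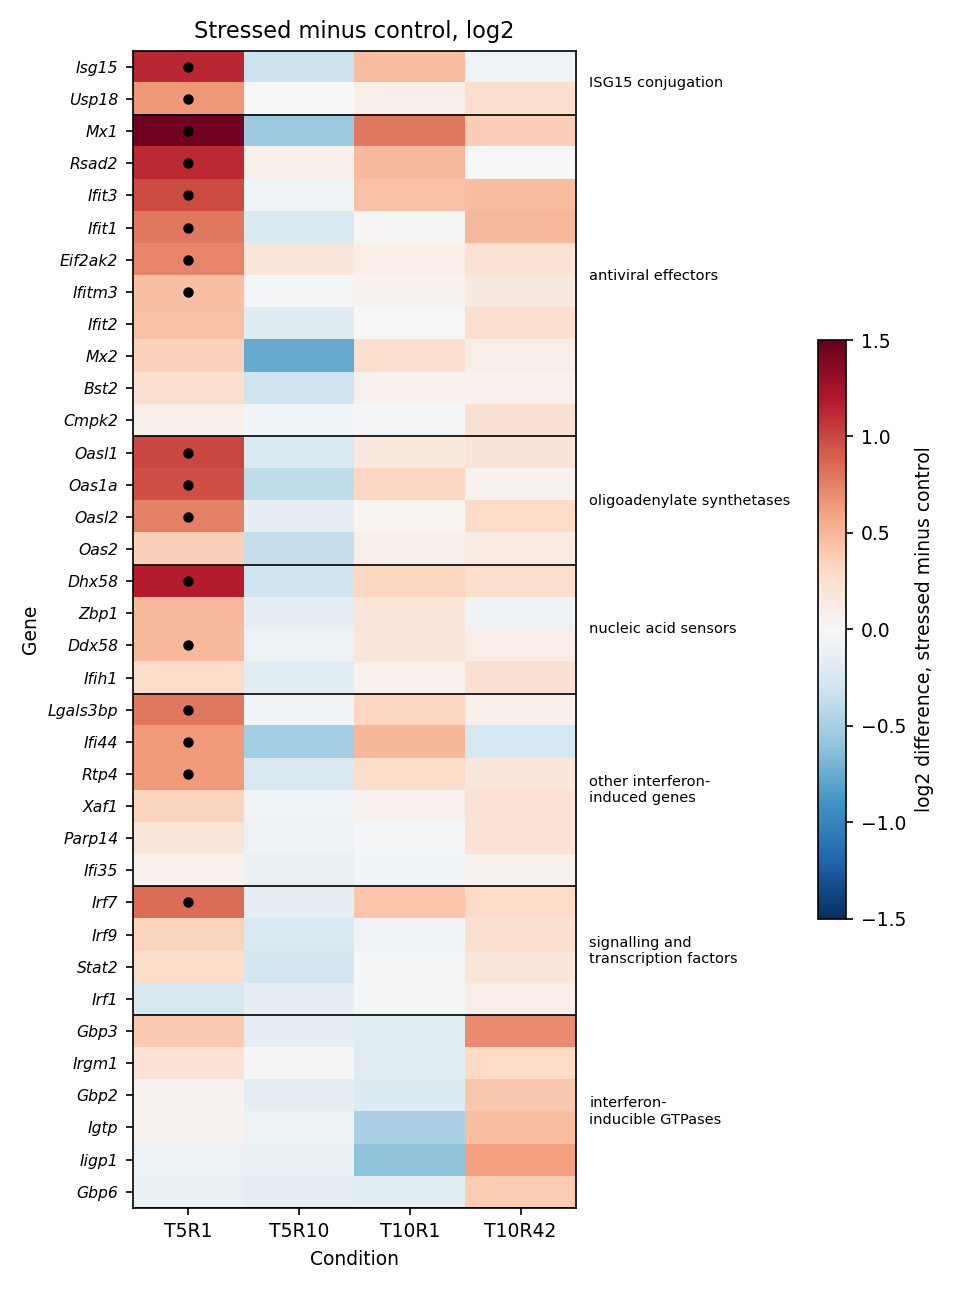
Rows are the 36 tested members grouped by role, columns are the 4 conditions, and colour is the log2 difference of stressed minus control. Black dots mark an adjusted p below 0.05. All 17 dots lie in T5R1, and the 6 GTPases at the bottom are below 0 in T5R10 (5 of 6 with normexp background correction, 2 of 6 without control replicate 3) and T10R1 (5 of 6 without control replicate 4) and above 0 in T10R42.

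Rest of 10 days after the same exposure gave hearts in which no member was called. In T5R10 0 of 36 members passed by limma, where 0.0763% of all genes did (0.0218% higher and 0.0545% lower). At an unadjusted p below 0.05, 2 members were lower and none was higher (share of all genes not given). The sign was nonetheless mostly negative: 33 of 36 members were measured lower, with a median of -0.14 against -0.02 over all genes. All stressed mice lay below all controls for 4 members, Mx2, Ifi44, Bst2 and Oas1a, against 3.24% of all genes. The small share of genes that passed depended on the 3 arrays marked for evaluation. Without them 1088 genes passed (330 higher and 758 lower), but still no member.

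Mx2 was lowest relative to its controls. It had -1.66, -1.92, -1.96 and -1.29 in stressed T5R10 hearts, against -0.95, -0.65, -1.01 and -1.18 in their controls (-0.76 ± 0.18, adjusted p = 0.0836). The groups did not overlap. Ifi44 had -0.97, -0.92, -0.78 and -0.85 in stressed hearts, against -0.36, -0.01, -0.46 and -0.61 in controls (-0.52 ± 0.19, adjusted p = 0.222). Bst2 had 2.74, 2.86, 2.93 and 2.88 in stressed hearts, against 2.96, 3.50, 3.11 and 3.02 in controls. Oas1a had 0.71, 0.87, 0.91 and 0.90 in stressed hearts, against 1.09, 1.49, 1.26 and 1.08 in controls. In these 4 genes control replicate 2 was the highest control.

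The other members with small p overlapped between arms. Stat2 had 1.22, 1.42, 0.92 and 1.18 in stressed hearts, against 1.20, 1.66, 1.53 and 1.43 in controls. Oas2 had 2.02, 1.71, 1.38 and 1.88 in stressed hearts, against 2.07, 2.41, 1.93 and 2.01 in controls. Rtp4 had 1.17, 1.57, 1.52 and 1.43 in stressed hearts, against 1.61, 1.73, 1.82 and 1.43 in controls. Isg15 had 2.33, 2.46, 2.60 and 2.30 in stressed T5R10 hearts, against 2.50, 2.98, 2.82 and 2.68 in controls (-0.32 ± 0.20, adjusted p = 0.481). A single stressed mouse exceeded the lowest control for Isg15. Ifit3 differed by -0.06, Ifit1 by -0.21, Oasl2 by -0.12, Usp18 by 0.01, Irf7 by -0.15, Irf1 by -0.12, Gbp2 by -0.13 and Igtp by -0.08, and the arms overlapped for all 8. The lowest Ifit3 level was 0.80 in stressed hearts and 0.84 in controls. Igtp varied widely among mice of either arm, from 1.91 to 3.16 in stressed hearts and from 1.79 to 3.40 in controls.

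**Figure D3:**
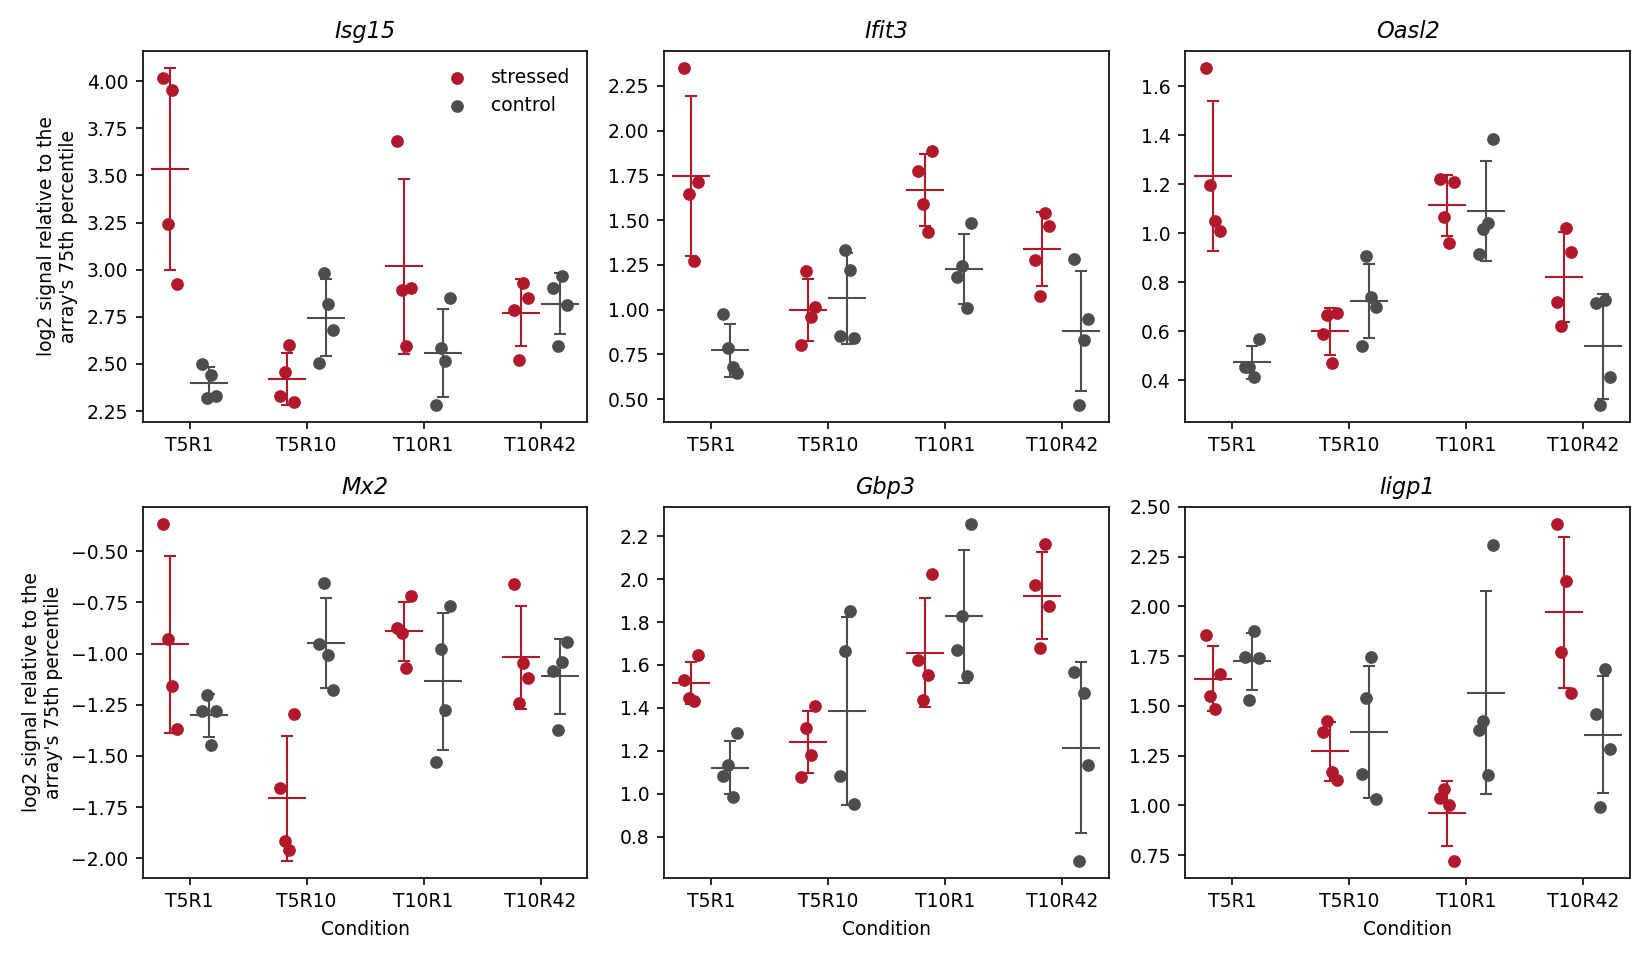
Points are single mice, and height is the log2 signal relative to the array's 75th percentile. Bars are the mean and SD of 4 mice. Isg15, Ifit3 and Oasl2 separate the arms in T5R1, Mx2 in T5R10 (stressed lower), and Gbp3 in T5R1 and T10R42, while Iigp1 has the stressed mice lower in T10R1 and overlapping with controls in T10R42.

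A day after the longer exposure, 0 of 36 members passed, where 1.13% of all genes did by limma. In T10R1 24 members were measured higher and 12 lower, with a median of 0.07 against 0.00 over all genes. At an unadjusted p below 0.05, 4 members were higher and 1 was lower (share of all genes not given). The 6 GTPases were all among the 12 measured lower, with a median of -0.19. Their values leaned on control replicate 4: without that mouse the median was -0.05 and 5 of the 6 were measured lower, with Igtp at -0.07 (-0.49 with it), Iigp1 at -0.36 (-0.60 with it) and Irgm1 at 0.02 (-0.16 with it).

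Several members of the T5R1 group leaned the same way without passing. Isg15 had 3.68, 2.89, 2.59 and 2.90 in stressed T10R1 hearts, against 2.28, 2.59, 2.51 and 2.85 in their controls (0.46 ± 0.20, adjusted p = 0.322). Ifit3 had 1.77, 1.59, 1.43 and 1.88 in stressed hearts, against 1.18, 1.24, 1.01 and 1.48 in controls (0.44 ± 0.18, adjusted p = 0.282). Both overlapped between arms through a single stressed mouse. Ifi44 had -0.26, -0.60, -0.60 and -0.54 in stressed hearts, against -1.19, -1.06, -0.91 and -0.80 in controls, and was the only member with every stressed mouse above every control (0.49 ± 0.19, adjusted p = 0.257). All stressed mice lay above all controls for 4.3% of all genes.

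Lgals3bp had 3.52, 3.24, 3.05 and 3.44 in stressed hearts, against 2.86, 3.04, 2.91 and 3.16 in controls. Irf7 had -0.83, -0.82, -1.51 and -0.95 in stressed hearts, against -1.60, -1.49, -1.58 and -1.10 in controls. Rsad2 had 2.61, 1.62, 1.46 and 1.71 in stressed hearts, against 0.92, 1.59, 1.39 and 1.53 in controls. These 3 overlapped between arms, as did Rtp4, with 1.96 to 2.20 in stressed hearts and 1.57 to 2.29 in controls. Oasl2, Ifit1, Stat2 and Irf1 differed by 0.02, 0.02, -0.01 and -0.02, and Usp18, Bst2 and Mx2 by 0.09, 0.06 and 0.24.

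Iigp1, a GTPase of the immunity-related family, had the smallest p in T10R1. It had 1.04, 1.08, 1.00 and 0.72 in stressed hearts, against 1.38, 1.42, 1.15 and 2.31 in controls (-0.60 ± 0.20, adjusted p = 0.165). All stressed mice lay below all controls, and control replicate 4 lay well above the other controls. Such separation downward was seen in 5.48% of all genes. Igtp had 2.37, 3.01, 2.17 and 2.96 in stressed hearts, against 2.96, 3.03, 2.10 and 4.36 in controls, where replicate 4 was again highest. Gbp2 had 1.93, 2.02, 1.77 and 2.05 in stressed hearts, against 2.11, 2.22, 1.87 and 2.37 in controls. For Igtp and Gbp2 the arms overlapped.

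After 42 days of rest most members were measured higher, the GTPases among them. In T10R42 0 of 36 members passed by limma, where 0.897% of all genes did, but 33 members were measured higher, with a median of 0.21 against -0.03 over all genes. At an unadjusted p below 0.05, 6 members were higher and none was lower (share of all genes not given). All 6 GTPases were measured higher, by 0.30 to 0.71, and 4 of the 6 members at that unadjusted level were GTPases. All stressed mice lay above all controls for 5 members, 3 of them GTPases, against 4.15% of all genes, and below all controls for none, against 7.3% of all genes.

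Gbp3, a guanylate-binding protein, had 1.97, 1.68, 2.16 and 1.88 in stressed T10R42 hearts, against 1.57, 0.69, 1.47 and 1.13 in their controls. The groups did not overlap (0.71 ± 0.19, 1.63-fold, adjusted p = 0.0605), and Gbp3 passed the threshold without stressed replicate 2. Iigp1 had 2.42, 1.77, 2.13 and 1.56 in stressed hearts, against 1.46, 0.99, 1.69 and 1.28 in controls (0.61 ± 0.20, adjusted p = 0.107). Gbp2 had 2.06, 1.86, 2.21 and 1.80 in stressed hearts, against 1.76, 1.41, 1.61 and 1.53 in controls (0.41 ± 0.15, adjusted p = 0.146). Igtp had 2.80, 2.62, 3.14 and 2.53 in stressed hearts, against 2.51, 2.01, 2.42 and 2.34 in controls (0.45 ± 0.34). Gbp2 and Igtp did not overlap between arms, while Iigp1 did through a single stressed mouse.

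The probe that the array names Gbp6 carries a RefSeq accession that GRCm38.p6 assigns to Gbp7, so its values are those of Gbp7. It had 0.19, -0.19, 0.31 and 0.01 in stressed T10R42 hearts, against -0.04, -0.61, -0.20 and -0.35 in controls. The probe whose accession is that of Gbp6 is named Mpa2l on the array and differed by 0.20 (adjusted p = 0.597). Likewise the accession of Herc6 sits on probes named Herc5, which differed by 0.17 in T5R1, -0.08 in T5R10, 0.09 in T10R1 and 0.07 in T10R42. Herc6, the mouse ligase that attaches ISG15, was thus not called in any condition by that route.

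Among the members outside the GTPases, Ifit3 had 1.28, 1.08, 1.54 and 1.47 in stressed hearts, against 1.28, 0.47, 0.83 and 0.95 in controls in T10R42 (0.46 ± 0.18, adjusted p = 0.169). Ifit1 had -0.41, -1.20, -0.46 and -0.80 in stressed hearts, against -1.74 in control replicate 2 and -1.07 to -0.98 in the other controls, a difference of 0.48. Oasl2 had 0.72, 0.62, 1.02 and 0.93 in stressed hearts, against 0.72, 0.30, 0.73 and 0.41 in controls. In all 3 genes control replicate 2 was the lowest control and the arms overlapped. Parp14 differed by 0.21, Irf7 by 0.29, Usp18 by 0.27, Stat2 by 0.18, Irf1 by 0.10, Mx2 by 0.09, Bst2 by 0.06 and Isg15 by -0.05. Isg15 had 2.52 to 2.93 in stressed hearts and 2.60 to 2.97 in controls, so the arms overlapped for it.

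Whether the stress effect itself differed with rest was tested as a difference of differences. Between T5R10 and T5R1, 11 members had a lower effect after 10 days of rest than after 1 day and none a higher one, where 1.31% of all genes had a lower effect and 1.18% a higher one (2.49% in either direction). Of these 11, 10 (all but Mx2) had risen in T5R1. In all 35 of 36 members were measured lower, with a median of -0.59 against 0.08 over all genes. The 2 effects share no mice, but each lies on its own slide, so slide and condition cannot be told apart.

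The difference of effects was -1.47 ± 0.30 for Dhx58 (adjusted p = 0.0087), -1.46 ± 0.29 for Isg15 (adjusted p = 0.00674) and -1.35 ± 0.29 for Oas1a (adjusted p = 0.0131). Over the alternatives Dhx58 ranged from -1.682 to -0.769 and Isg15 from -1.664 to -1.3, and both kept their calls. Oasl1 followed at -1.24 ± 0.27, Ifi44 at -1.16 ± 0.28, Mx2 at -1.11 ± 0.26 and Ifit3 at -1.04 ± 0.26. Oasl2 differed by -0.88 ± 0.18, Rtp4 by -0.87 ± 0.20, Lgals3bp by -0.83 ± 0.21 and Ifitm3 by -0.47 ± 0.11. The Lgals3bp probes disagree here too, since the other probe gave effects of 0.06 in T5R10 and 0.08 in T5R1. With the mean over probes Lgals3bp differed by -0.42 and was not called (adjusted p = 0.185 by limma). For Mx2 the difference rested mainly on T5R10, where its effect was -0.76 against 0.35 in T5R1. Without T5R1 stressed replicate 1, and likewise without T5R10 control replicate 2, 6 members were called. None of the 6 GTPases was called, and their median difference of effects was -0.15.

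Cell type markers moved the same way in this difference. Of 13 macrophage markers 5 were called lower by limma and all 13 measured lower, with a median of -0.66, led by Lilrb4 (-1.48 ± 0.29), Cd68 (-1.31 ± 0.29), Csf1r (-0.56 ± 0.13) and Mrc1 (-0.88 ± 0.21). Of 9 markers of dividing cells 8 were called lower, with a median of -2.47, and of 8 fibroblast markers 3 (Col1a1, Col3a1 and Lum), with a median of -0.53. Several markers of dividing cells were near background in T5R1 controls, which limits the size of their median as a measure. No marker was called higher. The part of these cells in the members' difference was not tested.

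**Figure D4:**
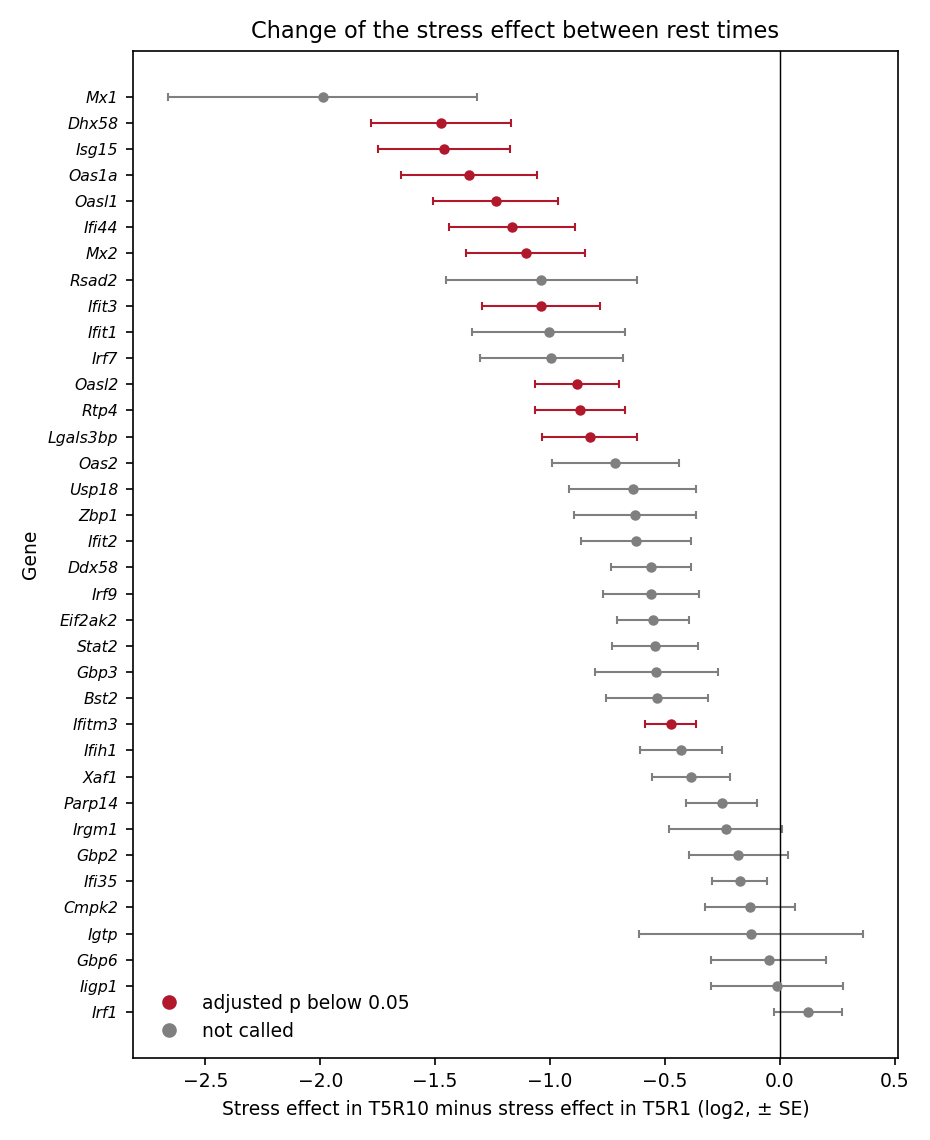
Each row is a member, and the point is its stress effect in T5R10 minus its stress effect in T5R1 on the log2 scale, with the SE as a bar. Red marks an adjusted p below 0.05. The 11 red genes lie between -0.47 and -1.47, and 35 of the 36 points are below 0. Mx1, the lowest point at -1.99, was not called.

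Between T10R42 and T10R1, where 4.12% of all genes were called by limma (1.89% with a higher and 2.23% with a lower effect), 1 member was. Iigp1 had a higher effect after 42 days of rest than after 1 day, by 1.22 ± 0.29 (adjusted p = 0.0232), since its effect was 0.61 in T10R42 and -0.60 in T10R1. Its second probe gave effects of 0.58 in T10R42 and -0.75 in T10R1. The call was lost without T10R42 control replicate 2 and without T10R42 stressed replicate 3. All 6 GTPases were measured higher in this difference, with a median of 0.74, and the next smallest p belonged to Gbp3 (0.88 ± 0.27, adjusted p = 0.0575), Gbp2 (0.61 ± 0.21, adjusted p = 0.0934), Ifi44 (-0.76 ± 0.28, adjusted p = 0.0994) and Gbp6 (0.54 ± 0.25, adjusted p = 0.19). Over all 36 members the median was 0.10. Slide and scan day also differ between T10R42 and T10R1, so neither can be told apart from rest.

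Between T10R1 and T5R1, which differ in exposure at the same rest, 0 of 36 members were called, where 0.592% of all genes were by limma. These conditions also differ in slide and scan day, which cannot be told apart from exposure. At an unadjusted p below 0.05, 11 members had a lower effect after the longer exposure and none a higher one (share of all genes not given). Oasl2 (-0.73 ± 0.18) and Eif2ak2 (-0.63 ± 0.16) both reached an adjusted p of 0.0559. Ifitm3 (-0.40 ± 0.11), Oasl1 (-0.86 ± 0.27) and Dhx58 (-0.85 ± 0.30) came next. In all 35 of 36 members were measured lower, with a median of -0.39 against 0.09 over all genes. This difference shares the T5R1 mice with the difference between T5R10 and T5R1.

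The rest of the interferon pathway was looked at through listed genes that are not members. Of 31 further interferon-induced genes tested, 7 rose and 2 fell in T5R1. The risers with the smallest p were Ifi30 (0.74 ± 0.14), a lysosomal thiol reductase, Tor3a (0.46 ± 0.10) and Ifi27l2a (0.90 ± 0.23), while Sp100, a nuclear body protein, fell by 0.24 (-0.24 ± 0.07). Of 4 interferon-inducible chemokines, Cxcl10 rose by 1.76 ± 0.41 (adjusted p = 0.00549), Cxcl11 fell by 0.38 (-0.38 ± 0.11) and Cxcl9 differed by 0.04 ± 0.18. Cxcl10 attracts T cells, and all its stressed mice lay above its controls. Among 16 sensing adaptors and kinases, the transcription factor Irf8 (0.65 ± 0.13) and Tmem173, which encodes STING (0.53 ± 0.13), rose and Trim25, the ligase that activates RIG-I, fell by 0.23. The lower calls among listed pathway genes depended on the scaling: Sp100, Cxcl11, Trim25, Ifna2, Tap2 and Oas1b lost theirs after quantile normalization and in the authors' value table, although each was measured lower in both.

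Receptors, ligands and antigen presentation gave little in T5R1. Of 10 receptors and kinases tested none rose by limma, and none of 8 inhibitors of the pathway was called. Of 9 ligand genes tested, Ifna2 was called lower (-0.54 ± 0.15) and none higher. Ifnb1 was well above background on 1 array and Ifng on 5 of the 32 arrays, so neither was tested. Of 13 genes of MHC class I and the immunoproteasome 1 fell, Tap2, by 0.27 (-0.27 ± 0.08).

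No listed pathway gene was called in T5R10, T10R1 or T10R42. In T10R42 all 13 genes of MHC class I and the immunoproteasome were measured higher, with a median of 0.29 (12 of 13 in the authors' value table), against 2 of the 13 in T10R1 with a median of -0.15 (6 of 13 after quantile normalization). B2m, the light chain of MHC class I, was 0.48 ± 0.19 higher in T10R42 and H2-K1 0.48 ± 0.20, and neither was called (adjusted p = 0.168 and 0.194 by limma). Between T10R42 and T10R1, Gbp9 (0.60 ± 0.16), Ms4a4c (0.77 ± 0.20) and Pias1 (0.34 ± 0.10) had a higher effect after 42 days of rest and Tlr9 a lower one (-0.52 ± 0.15). Gbp9 is a guanylate-binding protein like members Gbp2 and Gbp3.

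Markers of several cell types moved with the members in T5R1. Of 13 macrophage markers 7 rose and none fell, led by Cd68 (1.17 ± 0.20), Lilrb4 (1.18 ± 0.21), Mrc1 (0.83 ± 0.15) and Adgre1 (0.92 ± 0.21). Their mean per mouse was 0.28 to 1.06 in stressed hearts and -0.11 to 0.05 in controls, and stressed replicate 1 was again highest, at 1.06. Of 9 markers of dividing cells 8 rose, with means of 1.91 to 2.48 in stressed hearts and -0.23 to 0.16 in controls. The size of these means depended on dim probes, since Bub1 was well above background on 0 control arrays and Top2a on 1. With normexp all 8 stayed called but were smaller, from 0.46 for Bub1 (2.88 in the values reported) to 2.04 for Birc5 (2.37). Of 8 fibroblast markers 4 rose, with 0.87 to 1.93 in stressed hearts and -0.10 to 0.17 in controls, and of 7 erythroid markers 3 rose, with 0.61 to 2.68 in stressed hearts and -0.33 to 0.39 in controls. Of 8 neutrophil markers 3 rose, and 1 with normexp. None of the macrophage, dividing cell, fibroblast, erythroid or neutrophil markers tested fell. The part of these cells in the result was not tested.

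No marker tested of plasmacytoid dendritic, T or NK cells, which are known for interferon output, was called higher in T5R1. Several of these markers were dim there. Klk1 (plasmacytoid dendritic cell) and Ncr1 (T and NK cell) passed the filter through other groups. In T5R1 each was well above background on 0 control and 0 stressed arrays. The same held for the better detected of 2 probes of Runx2 and of Klrb1c, and that of Cd8a had 1 and 1. Cd3g was so on 0 control and 2 stressed arrays, and Spib on 2 control and 3 stressed arrays. For such genes the lack of a call says little, yet they count in the lists and means that follow. None of 7 markers of plasmacytoid dendritic cells was called, with means of -0.30 to -0.11 in stressed hearts and -0.43 to 0.27 in controls. Of 11 T and NK cell markers none rose and 2 fell, Nkg7 and Cd3e (Nkg7 alone after quantile normalization), with means of -0.44 to -0.17 in stressed hearts and -0.11 to 0.21 in controls. None of 6 B cell or 8 endothelial markers was called. Of 8 cardiomyocyte markers, all measured lower (5 after quantile normalization), Tnni3 was called (-0.32 ± 0.10, but not called after quantile normalization), and the means were -0.39 to -0.08 in stressed hearts and -0.02 to 0.02 in controls. All 8 passed the background filter, as heart tissue would.

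In T10R1 5 of 8 fibroblast markers, 1 of 13 macrophage markers (Csf1r) and 1 of 9 markers of dividing cells (Ccnb2) rose, while no interferon response gene was called. The fibroblast means were 0.73 to 1.56 in stressed hearts and -0.08 to 0.04 in controls, and the macrophage means 0.15 to 0.63 in stressed hearts and -0.12 to 0.07 in controls. In T10R42 no marker was called, and the macrophage means were 0.03 to 0.13 in stressed hearts and -0.09 to 0.08 in controls.

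**Figure D5:**
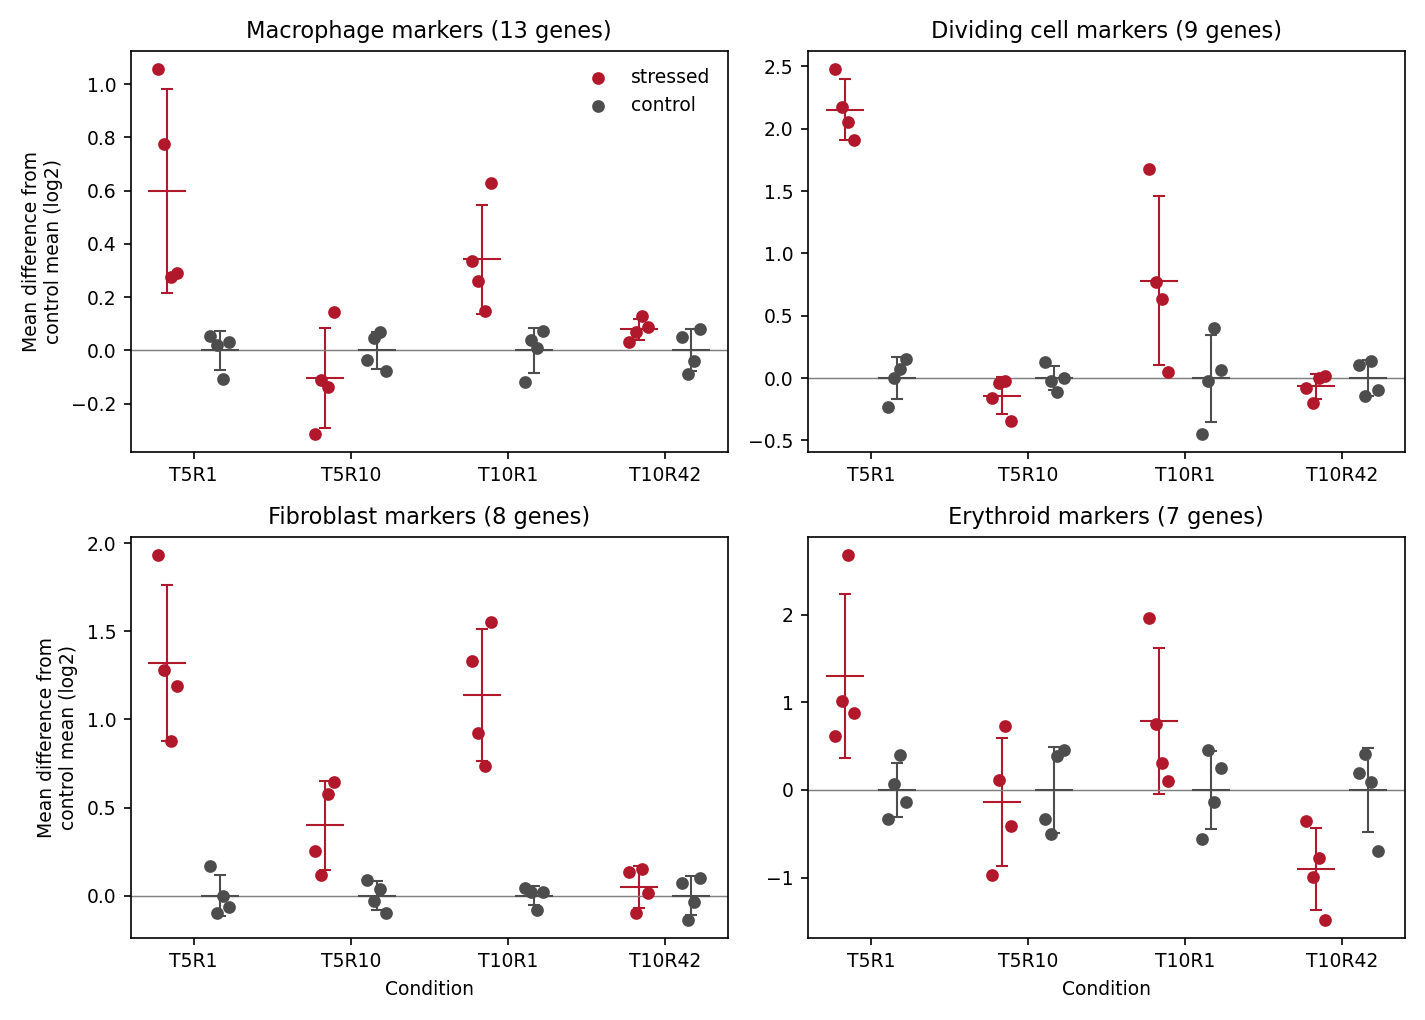
Each point is a mouse, and its height is the mean over a list of cell type markers of its log2 difference from the control mean of its condition. Bars are the mean and SD of 4 mice. The macrophage, dividing cell and fibroblast means of stressed T5R1 mice lie above their controls, and the fibroblast means of stressed T10R1 mice do as well.

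Within groups the members varied together. After each group's mean was taken out, the deviation of a member correlated with the mean deviation of the other members at more than 0.5 for 33 of 36 members over the 32 mice, with a median of 0.717 and none below 0. Of the other genes tested, 2.08% correlated with the members' mean above 0.5, and their median was -0.05. These are descriptions, since the mice share slides, scaling and cell composition. Oasl2 followed the others most closely (0.891) and Rsad2 least (0.076). The GTPases followed each other at a median of 0.805 and the other members each other at 0.738, while the mean of the GTPases and the mean of the other 30 members correlated at 0.651.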

How the data were processed

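Scanner files of 32 one-colour arrays were used, with 1 array for each mouse. Each deposited intensity was background-subtracted and detrended by Agilent Feature Extraction 10.7.3.1, per the file headers. Deposited beside it were other columns, among them the mean signal, the background signal and flags of 0 or 1 for each spot. The authors' deposited value table holds log2 values that correlated at 0.99951 or more with the log2 mean signal of each array. It was used as an alternative, and its column medians lay between 6.003 and 6.388; whether genes were centred was not stated.

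Values were log2 processed signal minus the array's 75th percentile over spots that are not controls. Outlier spots (5470) were left out, spots of a probe averaged, and no spot was saturated. Probes were kept when well above background on at least 3 of 4 arrays of a group and missing on at most 4 arrays (38827 probes), and the brightest probe stood for its gene. RefSeq accessions (GRCm38.p6) named 26413 of 55681 probes, and other probes kept the array's name; members were found by the array's name. limma 3.58.1 in R 4.3.3 fitted the 8 group means over all 32 arrays (24 residual and 2.28 prior degrees of freedom). Tests were two-sided, with Benjamini-Hochberg adjustment over 27535 genes at 0.05, and the code was tested on simulated data. The number of arrays limits the precision. The labels name individual hearts, so replicates are separate mice.

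The members and the lists were chosen with earlier results of these data known, so no list test, score test or adjustment over a list was made. Values per mouse are given for the 8 members with the smallest p in each condition and, in part as ranges or differences, for Isg15, Irf7, Irf1, Stat2, Ifit1, Ifit3, Oasl2, Mx2, Usp18, Bst2, Gbp2 and Igtp. Of other lists up to 4 called genes with the smallest p are named, with Cxcl9, Cxcl10 and Ifng; a further listed gene is not reported here. Genes named beyond this (Trim25, Oas1b, B2m, H2-K1, Ifnb1, Xaf1, Parp14, Ifi35, Herc6) were chosen after their values were seen. Alternatives were another background correction, quantile normalization, the authors' table, other filters, the mean over probes, each condition fitted alone, replicate number or slide row as a block, and arrays left out.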

Additional observations from a re-analysis of the deposited data

Results flagged for a closer look

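Of 104 groups of values looked at for a mouse far from the other 3, 2 had such a mouse, where chance gives about 1 in 20. Ifit1 in T10R42 controls was lowest in replicate 2, at -1.741, and Bst2 in T10R1 controls was highest in replicate 4, at 3.154. The same control mice were the lowest and the highest of their groups for the mean over all 36 members.

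The stress effect of 11 members differed between T5R10 and T5R1 by limma's test of the difference (T5R10 minus T5R1, log2), namely Isg15 at -1.461, Dhx58 at -1.474, Oas1a at -1.352, Oasl1 at -1.236, Ifi44 at -1.165, Mx2 at -1.106, Ifit3 at -1.038, Oasl2 at -0.882, Rtp4 at -0.869, Lgals3bp at -0.828 and Ifitm3 at -0.474. With the mean over probes Lgals3bp was not called. Iigp1 differed between T10R42 and T10R1 by 1.219. Slide and condition cannot be told apart in these differences, nor can scan day and condition in that of Iigp1.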

How the results depend on the processing

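In T5R1 the count of members that rose was 17, and 16 to 20 under every other setting except the fit of the condition alone, which called 11, Gbp3 among them. Leaving out each mouse gave 11 to 18 members, with 11 without stressed replicate 1, and medians of 0.328 to 0.514. Of the 17 calls 10 held in every alternative, and Mx1, Ifit1, Ifi44, Usp18, Irf7, Ddx58 and Rsad2 lost theirs in at least 1. No named member changed sign with a call. Slide row as a block added 1 member called lower in T5R1, Irf1. The median over all genes in T5R1 was -0.119, and -0.029 after quantile normalization, where 36.5% of called genes were lower, against 61.4% in the values reported and 38.7% in the authors' table.

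In T5R10 leaving out each mouse gave 0 to 1 members called lower (Mx2, without stressed replicate 4) and medians of -0.225 to -0.095. In T10R1 no mouse left out gave a call, and the medians were 0.028 to 0.142. In T10R42 Gbp3 was the 1 member called higher with the replicate block, with slide row as a block and without the arrays marked for evaluation, and leaving out each mouse gave 0 to 1 with medians of 0.134 to 0.293.

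For T5R10 minus T5R1, 11 members were called, 5 with the conditions fitted alone and 8 without the marked arrays, and leaving out each mouse gave 6 to 15 with medians of -0.667 to -0.467. Calls of 5 members held in every alternative. For T10R42 minus T10R1 the count of 1 became 2 with normexp and without the marked arrays, 3 with the replicate block and with slide row, and 0 with the conditions fitted alone; leaving out each mouse gave 0 to 2 with medians of 0.052 to 0.173. For T10R1 minus T5R1 the count of 0 became 2 lower with slide row and 1 without the marked arrays or with the conditions fitted alone, and leaving out each mouse gave 0 to 2 with medians of -0.458 to -0.256. Fits of single conditions rest on fewer mice. Otherwise the cause was not tested.

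Replicate numbers were not used as pairs in the values reported. Deviations of same-numbered mice correlated at -0.266 to 0.214, and 7 of 16 correlated best with their own number among 4 controls. Same-numbered mice also shared a slide row, so these correlations cannot settle whether the numbers pair the mice. The replicate block moved the T5R1 count to 20.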
